A study of Caenorhabditis elegans with 4 samples.

Results

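Isocitrate dehydrogenases oxidise isocitrate to 2-oxoglutarate. The NAD-dependent enzyme of the mitochondrial matrix carries out this step of the tricarboxylic acid cycle and is built from alpha, beta and gamma subunits. The NADP-dependent enzymes are separate proteins, in the cytosol and in mitochondria, that supply NADPH. Malonyl-CoA decarboxylase breaks down malonyl-CoA, which in mammals restrains the entry of fatty acids into mitochondria. The 6 genes described here are idhg-1 and idhg-2, for gamma subunits, idha-1, for the alpha subunit, idh-1 and idh-2, for NADP-dependent enzymes, and mlcd-1, for malonyl-CoA decarboxylase. They are 6 of the 19973 protein-coding genes on the 6 nuclear chromosomes. The genes were chosen by name, with the peak next to idhg-1 known to be the strongest nuclear one and mlcd-1 taken in because its promoter window holds the same peak. The values of that peak are therefore a description, and no test was made on them.

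The data are chromatin immunoprecipitation sequencing of whole hermaphrodite Caenorhabditis elegans in late embryogenesis. The strain is OP372, with the genotype unc-119(tm4063) III; wgIs372, in which an inserted transgene makes K09A11.1 with a C-terminal GFP-FLAG tag, and the immunoprecipitation used an antibody to GFP. The group has 4 libraries, 2 technical ones for each of 2 biological replicates, and as it is the only group no conditions can be compared. The transgenic line is 1 line, and the age of the animals is given as unknown. Whole animals were used, so a signal cannot be given to a tissue, and the tagged protein comes from a transgene and not from the native gene. The lists of regions hold signal values but no counts, so depth is unknown and no error of a single value could be given. A pooled list, made from both replicates together, and a list for each replicate hold 30000 regions each, ranked here by signal. The thresholded list keeps 689 of the pooled regions by the irreproducible discovery rate, a measure of how well ranks recur between replicates. Of these, 663 are nuclear, with signals of 30.4 or more. Ranks below count nuclear regions alone, and a promoter window reaches from 1000 bp upstream to 200 bp downstream of each annotated 5′ end.

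The strongest nuclear peak lay between idhg-1 and mlcd-1, close to the start of idhg-1. Both genes are on chromosome III (assembly WBcel235, named ce11 in the lists) and are transcribed away from each other: idhg-1 (WBGene00009440) covers 4568797 to 4571865 on the plus strand, and mlcd-1 (WBGene00009439) covers 4566275 to 4568130 on the minus strand. Their outermost 5′ ends are separated by 666 bp of intergenic sequence. The peak covered 4568630 to 4568851, a width of 222 bp, of which 167 bp lie upstream of idhg-1 and 55 bp lie inside its first annotated exon. Its summit at 4568739 was 58 bp upstream of idhg-1 and 609 bp upstream of mlcd-1. No noncoding gene is annotated within 200 bp of the summit. The intergenic part of the peak is shown first, because it holds the summit. The summit sequences of atx-2 and ears-2, the other 2 protein-coding promoters among the 5 highest nuclear peaks, follow for comparison, that of ears-2 cut where its gene begins. The last is the weak promoter region of idh-2, cut where the neighbouring gene begins. Each is written 5′ to 3′ on the strand of the named gene, and the capitals mark every GCGGCGC and every copy of TTGC on that strand.
idhg-1, chrIII:4568630-4568796, plus strand: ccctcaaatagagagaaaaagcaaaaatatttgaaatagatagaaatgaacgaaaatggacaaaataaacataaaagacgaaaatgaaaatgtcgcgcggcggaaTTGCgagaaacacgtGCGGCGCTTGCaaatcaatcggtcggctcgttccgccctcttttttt
atx-2, chrIII:10461262-10461362, plus strand: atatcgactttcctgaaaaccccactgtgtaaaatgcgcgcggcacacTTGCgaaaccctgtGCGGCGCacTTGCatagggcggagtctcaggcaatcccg
ears-2, chrIV:390469-390542, minus strand: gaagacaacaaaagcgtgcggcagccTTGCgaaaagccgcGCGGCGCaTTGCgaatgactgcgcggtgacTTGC
idh-2, chrX:11215471-11215563, plus strand: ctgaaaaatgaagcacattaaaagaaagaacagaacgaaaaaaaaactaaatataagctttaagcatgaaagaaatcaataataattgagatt

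The idhg-1 and mlcd-1 peak stood far above every other region of the locus in each list. Its signal was 215.9 (pooled), 169 (replicate 1) and 50.7 (replicate 2). It ranked 1 in the pooled list, 1 in replicate 1 and 9 in replicate 2, with 10 mitochondrial regions above it in the pooled list. The summits of the replicate lists lay 61 bp (replicate 1) and 33 bp (replicate 2) upstream of idhg-1, which is 28 bp apart. Over the 603 nuclear thresholded peaks with a summit within 100 bp in both replicate lists, the median gap between the replicate summits was 32 bp. The peak was narrow in each list, at 222 bp in the pooled list, 215 bp in replicate 1 and 117 bp in replicate 2, whereas the commonest widths were 340, 336 and 316 bp. All 10 of the highest nuclear peaks were narrower than 340 bp, against 25 of all 663.

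**Figure D1:**
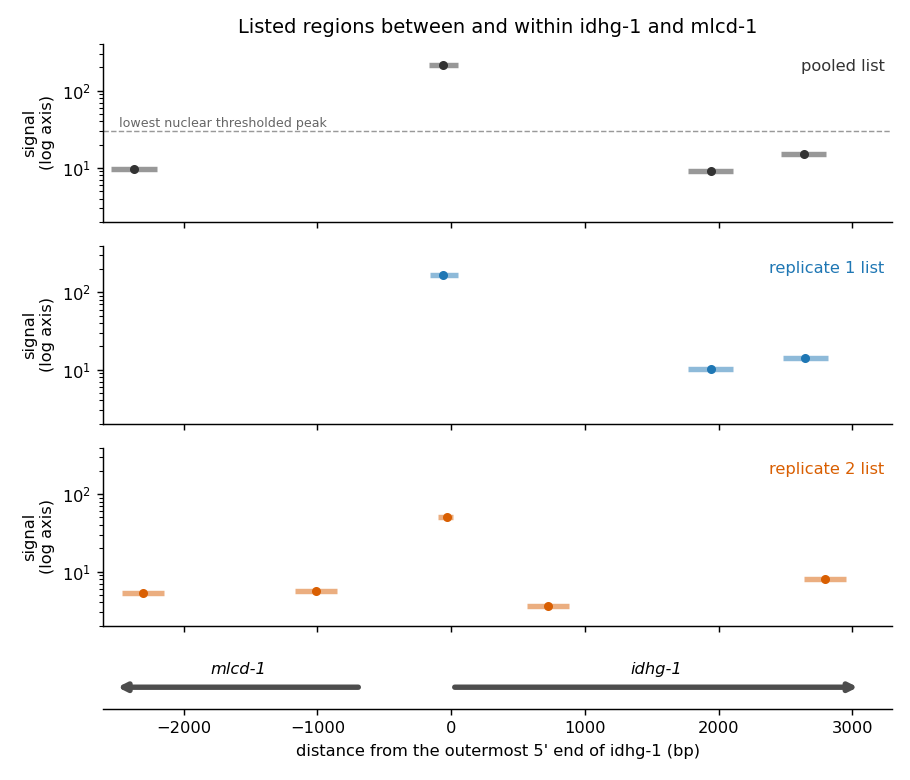
Regions of the pooled, replicate 1 and replicate 2 lists around idhg-1 and mlcd-1, as signal on a log axis against the distance in bp from the outermost 5′ end of idhg-1; lines span each region, points are summits, and arrows show the genes in their direction of transcription. The peak between the genes, with signals of 215.9, 169 and 50.7 in the 3 lists, is above all other regions shown, which reach 15.2 in the pooled list.

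Replicate 1 gave the higher value at this peak by more than at most peaks. The value in replicate 1 was 3.32 times that in replicate 2, against a median of 1.90 (quartiles 1.34 and 2.72) over the 603 peaks, of which 103 had a higher ratio. The values were not scaled between lists, and the relative depth of the replicates is unknown. No peak of the 603 was higher in replicate 1, and 8 were higher in replicate 2. By Euclidean distance over the log2 signals of the 3 lists, the peaks most like it were atx-2, at 0.42 log2 units, a peak in an intron of cutl-18 beside the snoRNA gene T03F7.8, at 0.59, a peak over C51F7.4, a snoRNA gene in an intron of frm-7, nearest to the 5′ end of F55C5.17, at 0.74, ears-2, at 0.76, and a peak beside the snoRNA gene W03C9.9, nearest to the 5′ end of W03C9.1, at 0.97. These are the peaks ranked 2 to 6, so the likeness is one of high signal, over 3 lists of which the pooled one holds the reads of the others. The atx-2 gene encodes the ataxin-2 homologue, and its peak had signals of 185 (pooled), 132 (replicate 1) and 51.9 (replicate 2). The ears-2 gene encodes a mitochondrial glutamyl-tRNA synthetase, and its peak had 162 (pooled), 109.9 (replicate 1) and 56.9 (replicate 2). The C51F7.4 peak had 180 (pooled), 116 (replicate 1) and 68.7 (replicate 2). In replicate 2 all 3 of atx-2, ears-2 and C51F7.4 were thus above idhg-1.

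**Figure D2:**
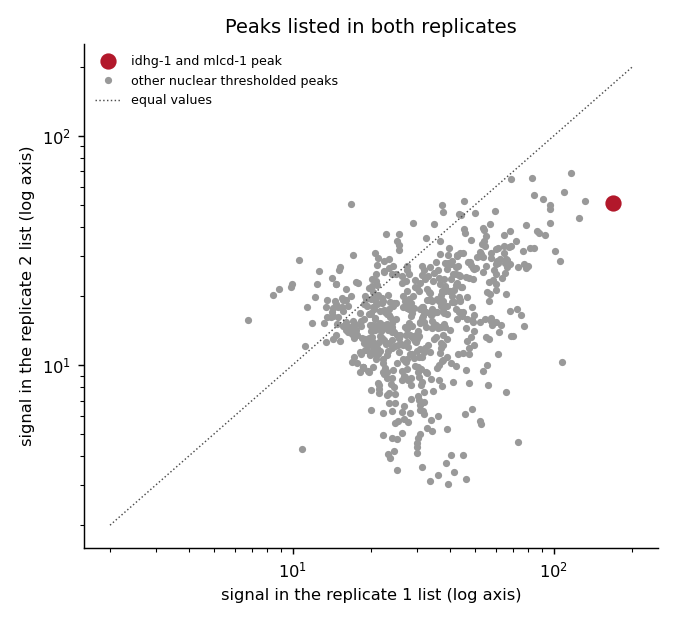
Signal in the replicate 2 list against signal in the replicate 1 list, both on log axes, for the 603 nuclear thresholded peaks listed in both replicates; the dotted line marks equal values. The idhg-1 and mlcd-1 peak, at 169 and 50.7, is farthest to the right and lies below the line of equal values.

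The peak cannot be given to 1 of the pair from its position alone. Its summit is in the promoter window of both genes and is nearer to idhg-1. With a window of 500 bp upstream and 100 bp downstream, or with each peak given to the nearest 5′ end only, idhg-1 alone kept it. Of the 357 nuclear thresholded peaks in a protein-coding promoter window, 136 (38.1%) lay in the windows of more than 1 gene. With the main window, 2 of the 6 genes had a thresholded peak, through this single peak, against 2.49% of all protein-coding genes. Counting gene bodies too, it was again 2 of the 6, against 3.2% of genes. Since the genes were chosen by this peak, nothing is read from that count.

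Within the bodies of idhg-1 and mlcd-1 the listed regions were weak. In idhg-1, a region near the 3′ end, with its summit in the last exon at 4571433, had a signal of 15.2 in the pooled list (rank 3641). Replicate 1 had 14.2 close by (summit at 4571446, rank 1697). Replicate 2 had 8.06 farther downstream in the same exon (summit at 4571590, rank 2577), more than 100 bp from both. The microRNA gene cel-mir-4813 lies inside this end of idhg-1, and the 3′ end of sel-5, on the other strand, overlaps it. A further region in an intron, at 4570737, had 9.01 in the pooled list and 10.3 in replicate 1, and no summit within 100 bp in replicate 2. Replicate 2 listed a region of 3.62 in an exon at 4569525. In mlcd-1, a region in an exon at 4566427 had 9.66 in the pooled list (rank 15281), and replicate 2 listed regions of 5.34 and 5.65 in its exons. No region of replicate 1 had its summit inside mlcd-1. The pooled values lie far below the lowest nuclear thresholded peak, at 30.4.

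The other gamma subunit gene, idhg-2, had only weak regions, with its promoter region near the bottom of the lists. It lies on chromosome I at 6974558 to 6977071, plus strand (WBGene00016266). The region in its promoter window had its summit 283 bp upstream, with a signal of 7.11 in the pooled list (rank 29252 of 29974) and 5.16 in replicate 1 (rank 29798). Its intronic region, with the summit at 6976219 in the pooled list, had 7.80 there and 7.07 in replicate 1. Replicate 2 listed no region in its promoter window or body. The promoter region also lies in the window of C30F12.4, the gene transcribed in the opposite direction. Between the gamma subunit genes, the highest pooled promoter signals were thus 215.9 at idhg-1 and 7.11 at idhg-2.

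The alpha subunit gene idha-1, on chromosome I at 8606549 to 8608631, minus strand (WBGene00009664), had the highest promoter region of the pooled list among the 4 genes without a thresholded peak. In replicate 1 idh-2 was slightly above it (9.70 at idha-1, 9.78 at idh-2), and in replicate 2 idh-1 was above it (6.57 at idha-1, 7.89 at idh-1). Its summit in the pooled list was 183 bp upstream, with a signal of 17.7 and rank 2187. The replicate lists placed summits at 178 bp (replicate 1, signal 9.70, rank 6697) and 166 bp upstream (replicate 2, signal 6.57, rank 4875), so the same place was listed in all 3. The noncoding RNA gene F43G9.16 lies within 200 bp of the pooled summit. Replicate 1 listed another region 960 bp upstream with 6.05 and a weaker one in an intron (rank 27677).

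The NADP-dependent genes had weak regions that did not recur at 1 place in both replicates. For idh-1, on chromosome IV at 9439078 to 9441107, minus strand (WBGene00010317), the related mammalian enzyme is cytosolic. Its pooled region had the summit at 9441106, at the outermost 5′ end, with a signal of 8.20 (rank 22252). Replicate 1 had 5.33 at a summit 30 bp upstream (rank 28319). Replicate 2 had 7.89 at 9440655, inside an exon and 117 bp downstream of another annotated 5′ end (rank 2752), which is more than 100 bp from the others. For idh-2, on chromosome X at 11216000 to 11218150, plus strand (WBGene00007942), the related mammalian enzyme is mitochondrial. Its promoter region had the summit 487 bp upstream in both lists that held it, with 13.0 in the pooled list (rank 6231) and 9.78 in replicate 1 (rank 6503). This summit is nearer to C34F6.7, transcribed in the opposite direction, being 43 bp upstream of that gene. An intronic region of idh-2 had 11.8 in the pooled list and 7.68 in replicate 1. Replicate 2 listed no region in the idh-2 window or body. A region of 17.5 in the pooled list lay 1502 bp upstream of idh-2, outside its window and in an intron of C34F6.7.

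**Figure D3:**
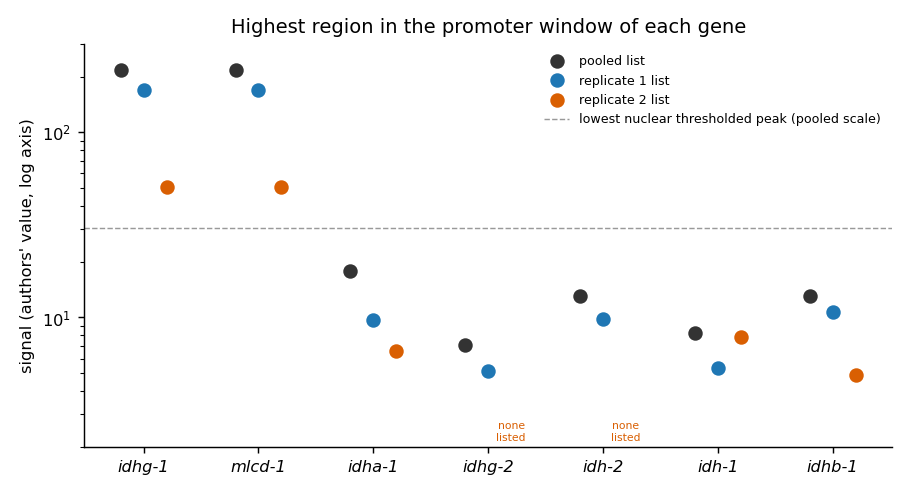
Highest signal in the promoter window of each of the 6 genes and of idhb-1 in the pooled, replicate 1 and replicate 2 lists, on a log axis; each point is 1 list's value, and the dashed line is the lowest nuclear thresholded peak, 30.4, on the pooled scale. The shared peak of idhg-1 and mlcd-1 has the highest value of the genes shown in each list, and the other genes are at 17.7 or lower.

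Weak regions in a promoter window or gene body were common among genes. A summit of the pooled list lay in the promoter window of all 6 genes, against 42.2% of protein-coding genes, and in the window or the body of all 6, against 60.2%. For idhg-1 and mlcd-1 this is the peak they were chosen by, so 4 of the 4 other genes had a weak region. In the replicate 1 list the 4 had one too, in the window (41.5% of genes) or in the window or body (60.5%). In the replicate 2 list 2 of the 4 had one, idha-1 and idh-1, against 42.5% of genes for the window and 63.5% for the window or body. Among the 5000 highest nuclear regions of the pooled list 1 of the 4 had one, idha-1, against 18.6% of genes for the window or body. By highest pooled signal in the promoter window, 1447 genes (7.24% of all) were above idha-1, 2945 (14.7%) above idh-2, 6907 (34.6%) above idh-1 and 8301 (41.6%) above idhg-2. No gene was above idhg-1 and mlcd-1. The median over the 8429 genes with a region was 11.0, and the 95th percentile was 33.0.

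**Figure D4:**
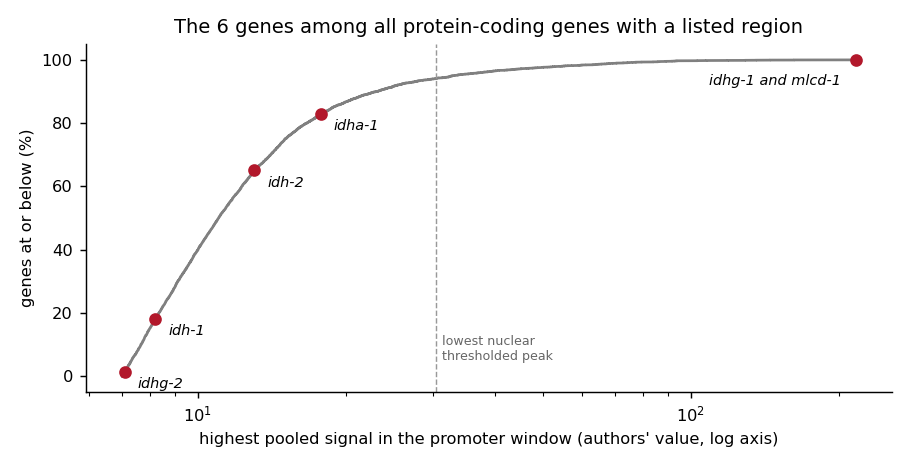
Cumulative share of the 8429 protein-coding genes with a pooled region in the promoter window, in percent, against the highest signal there on a log axis; red points mark the 6 genes and the dashed line the lowest nuclear thresholded peak. The value of idhg-1 and mlcd-1, 215.9, is at the top of the curve, idha-1 and idh-2 are above the median of 11.0, and idh-1 and idhg-2 are below it.

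The remaining subunit gene of the NAD-dependent enzyme, idhb-1, for the beta subunit, is not among the 6 genes and was looked at for completeness of the enzyme. It lies on chromosome X at 14170730 to 14174063, minus strand (WBGene00007993). Its promoter window held a region of 13.0 in the pooled list, with the summit 83 bp downstream of the outermost 5′ end, of 10.7 in replicate 1 and of 4.89 in replicate 2. A thresholded peak with a signal of 48.3 (rank 290), 21.04 in replicate 1 and 27.2 in replicate 2, lay 878 bp past the 3′ end of idhb-1. That peak is in the promoter window of the next gene, sym-4, 233 bp upstream of its 5′ end. Of the 4 genes for subunits of the NAD-dependent enzyme, idhg-1 had a thresholded peak in its window, against 2.49% of all protein-coding genes. As idhg-1 was chosen by that peak and such peaks are rare among genes, no contrast between the subunits is read from this.

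Other genes of the cycle or of pyruvate entry carried thresholded peaks of lower signal. The list used here holds 32 further genes of the tricarboxylic acid cycle and of pyruvate entry, idhb-1 among them. Of these, 4 had a thresholded peak in the promoter window, against 2.49% of all protein-coding genes. A pooled region was there at 20 (62.5%), against 42.2%. The median highest pooled signal of those 20 was 18.0, against 11.0 over all genes with a region. The list was drawn up with earlier results of these data known, so nothing particular to it is read from these shares. The highest was at pdhk-2, a kinase of pyruvate dehydrogenase, on chromosome III 8741457 to 8741796, with 57.7 in the pooled list (rank 197), 46.1 in replicate 1 and 9.47 in replicate 2. The remaining 3 were dld-1, dlst-1 and sucl-1. The dld-1 gene, for dihydrolipoamide dehydrogenase, a subunit of the pyruvate dehydrogenase complex too, had 34.8 (pooled), 26.5 (replicate 1) and 10.6 (replicate 2) at chromosome IV 14464098 to 14464437. The dlst-1 gene, for the succinyltransferase of the 2-oxoglutarate dehydrogenase complex, had 33.2, 22.9 and 9.37 in the same lists, pooled first, at chromosome V 6709058 to 6709397. The sucl-1 gene, for a subunit of succinyl-CoA ligase, had 31.6 (pooled), 16.5 (replicate 1) and 14.6 (replicate 2) at chromosome X 14753548 to 14753887. Their summits lay 127 to 308 bp upstream of the 5′ end, and none of the 4 peaks lay in the window of another protein-coding gene. All 4 were thus below the idhg-1 peak by a wide margin, and dld-1, dlst-1 and sucl-1 were near the lowest thresholded value of 30.4.

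Neither of the other lists held a thresholded peak apart from mlcd-1. Of 7 further genes of NADPH supply, 0 had one in the promoter window, against 2.49% of all protein-coding genes. A pooled region was there at 3 of the 7 (42.9%), with a median of 13.7, against 42.2% of genes. Of 13 further genes of malonyl-CoA and of fatty acid entry into mitochondria, which include acetyl-CoA carboxylase and the carnitine palmitoyltransferases, 0 had one, against 2.49% of genes. A pooled region was there at 8 of the 13 (61.5%), with a median of 11.96, against 42.2% of genes. Over all genes with a region the median was 11.0.

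The idhg-1 summit had a base composition near the middle of the thresholded summits. In the window of 50 bases on each side of the summit, 49.5% of the bases were G or C, close to the 48.8% ± 7.84 (SD over the 663 nuclear thresholded summits) and above the 34.5% ± 8.54 of the 29311 other nuclear pooled summits. The windows at the promoter regions of the other members had 29.7% (idhg-2), 42.6% (idha-1), 48.5% (idh-1) and 25.7% (idh-2). The G and C of the idhg-1 peak are unevenly placed: the sequence printed above opens with a long A-rich stretch and turns rich in G and C around the summit. No run of 32 bases in any of these windows was found again in the genome, whereas 169 of the 663 thresholded windows (25.5%) held at least 1 such run. Common words of 6 bases were looked for on both strands. The word CGCGCA was present at 14.2% of the 663 summits, against 1.94% of the other pooled summits and 1.96% of equally placed windows at all protein-coding genes, and was not in the idhg-1 window. The overlapping word GCGCAC was at 14.3% of the 663, against 1.98% and 1.75% of the same windows, and was also not in it. The idhg-1 window did hold other words commoner at thresholded summits. Of its 91 distinct words of 6 bases, 33 were above the other pooled summits by 2-fold. One, named after its values were seen, is CCGCAC, at 12.4% of the 663 and 1.71% of the other pooled summits. The word TTAAAA was at 7.69% of the 663, against 31.5% of the other pooled summits and 30.7% of the promoter windows, and among the members' promoter regions it was in that of idh-2 alone. The word CGAACC was at 10.9% of the 663, against 1.75% of the other pooled summits, and was in none of the members' windows. As most thresholded summits also lack it and the members are few, nothing is read from its absence.

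The printed sequences of idhg-1, atx-2 and ears-2 share an arrangement that was noticed on reading them and was not tested. In each, GCGGCGC lies between copies of TTGC on the strand of the gene. Counted from the start of each printed sequence, TTGC begins at bases 106 and 128 of idhg-1, 22 bases apart, and GCGGCGC at base 121. In atx-2 TTGC begins at bases 49 and 72, 23 apart, with GCGGCGC at 63. In ears-2 TTGC begins at 27, 49 and 71, 22 apart each time, with GCGGCGC at 41. The idh-2 sequence holds neither word on this strand. Most thresholded and other pooled summits lack GCGGCGC too, and the idh-2 region had the lowest GC content of the members' promoter regions (25.7%). Nothing is therefore read from this absence. Over both strands of the summit windows, GCGGCGC was present in 29 of the 663 nuclear thresholded summits (4.37%), against 0.471% of the other pooled summits and 0.471% of the equally placed promoter windows. The full arrangement, with the TTGC starts 22 or 23 bases apart and GCGGCGC between them, was present at 7 of the 663, at 1 of the 29311 other pooled summits and at 4 of 19973 promoter windows. The 7 include idhg-1, atx-2 and ears-2, from which it was read, and 4 of the other 660 thresholded summits held it. The longest word that the idhg-1 and atx-2 windows share is GTGCGGCGC, which includes GCGGCGC and was present at 13 of the 663 (1.96%), against 0.0648% of the other pooled summits. The counts of these words at the 663 also include the peaks they were read from. The promoter windows are not free of them either. That of idhg-1 is its summit window itself, and those of atx-2 and ears-2 overlap their summit windows. The promoter counts are therefore not an independent background for these words.

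The spacing seen at idhg-1 was the commonest one for TTGC at thresholded summits. TTGC itself was common everywhere, in 60.9% of the 663 windows, 53.7% of the other pooled windows and 50.1% of the promoter windows. Copies starting 22 bases apart on 1 strand were found in 35 of the 663 windows (5.28%), and copies 23 apart in 12 (1.81%). At each of the other spacings between 5 and 40 bases the count was 9 or fewer, with a median of 0.60%. Either spacing was present at 45 of the 663 (6.79%), against 0.703% of the other pooled summits and 0.506% of the promoter windows. The promoter windows again include that of idhg-1. Without the idhg-1, atx-2 and ears-2 peaks, 33 of 660 (5.0%) had the 22-base spacing and 42 (6.36%) had either. Of the 35 windows, 34 belonged to peaks in a protein-coding promoter window (34 of 357, 9.52%) and 1 to the 306 peaks elsewhere. None was within 200 bp of a small RNA gene, and of all 663 peaks 482 were likewise not within that distance of one. The GC content of the 2 kinds of summit differs, as given above, and its part in these counts was not tested. A match of letters shows no binding by itself.

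**Figure D5:**
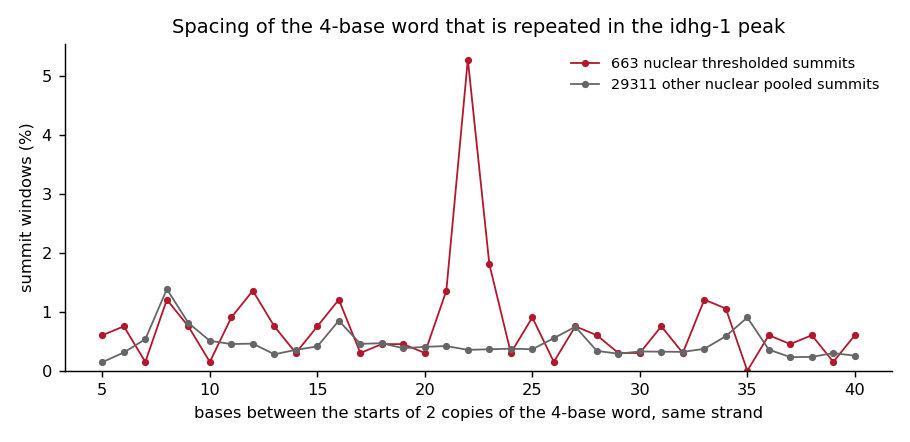
Share of summit windows, in percent, that hold copies of the 4-base word of the idhg-1 peak on the same strand, against the distance in bases between their starts, for the 663 nuclear thresholded summits and the 29311 other nuclear pooled summits. The thresholded summits have their highest share, 5.28%, at 22 bases, and the other summits stay low there.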

How the data were processed

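The peak lists were analysed as deposited by the authors: column 7 holds their signal value of each region, and the summit is the region's start plus the offset in column 10. The technical libraries of a biological replicate were 1 alignment and both replicates shared 1 control, per the deposited notes. For the aligner, the peak caller and the rank threshold, names and settings were not given in the sources used here. All 689 thresholded regions are rows of the pooled list on ce11. Regions were placed on WBcel235, the same build, with Ensembl release 115 genes, and every region fitted inside its chromosome. All annotated 5′ ends of a gene were used. Summits within 100 bp counted as 1 site in different lists. Summit windows reach 50 bases to each side; promoter windows compared with them sit at the idhg-1 summit's distance from each gene's outermost 5′ end. Sequences come from the RefSeq copy of WBcel235. The members, the pathway lists and the 4 words of 6 bases were chosen with earlier results of these data known, and TTGC with GCGGCGC after reading the sequences. Named genes are the members, idhb-1, pathway genes with a thresholded promoter peak, genes that share members' peaks, and the 2 peaks ranked below and the 5 peaks closest to idhg-1; sym-4, small RNA genes and neighbours of weak regions were named after their values were seen. No statistical test was made, because there is 1 group and the members were chosen on the readout. Alternatives were other windows, overlap in place of summits, nearest 5′ ends, a stricter list and single replicates. Python 3.11.15, numpy 2.4.6, pandas 2.3.3 and matplotlib 3.10.9 were used. Assignment to windows was tested on simulated data.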

Additional observations from a re-analysis of the deposited data

How the results depend on the processing

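Of 46 alternative values, 36 stayed within 1.5 times the reported one. The number of the 6 genes with a thresholded promoter peak was 1 instead of 2 with the window of 500 bp upstream to 100 bp downstream. It was also 1 with nearest 5′ ends only. The malonyl-CoA list then held 0 such genes instead of 1, since mlcd-1 is farther from the summit. The share of all protein-coding genes was 1.94% with that window and 1.75% with nearest 5′ ends. In the upper part of the list (331 nuclear peaks) the share of all genes was 1.2%. The list of cycle and pyruvate entry genes then held 2 genes with a peak, idhg-1 and pdhk-2. Among the 5000 highest nuclear pooled regions 3 of the 6 genes had one in the window or body, against 18.6% of all protein-coding genes. For idhg-1 and mlcd-1 this was the shared peak they were chosen by, and 1 of the other 4 genes, idha-1, had one. In single replicate lists the signal of the idhg-1 peak ran from 50.7 (replicate 2) to 169 (replicate 1) and its nuclear rank from 1 (replicate 1) to 9 (replicate 2). With the highest 663 nuclear regions of each replicate, the list of cycle and pyruvate entry genes held 4 of its 35 genes each time. The share of all protein-coding genes was 2.33% in replicate 1 and 2.62% in replicate 2. These were dld-1, dlst-1, idhg-1 and pdhk-2 in replicate 1, and aco-2, idhg-1, mdh-2 and sucl-1 in replicate 2. Only idhg-1 was thus in both. As idhg-1 was chosen by this peak and the overlap over all genes was not counted, nothing is read from this. The share of summits with TTGC copies 22 bases apart was 8.11% without peaks at small RNA genes and windows with recurring words and 5.0% without the idhg-1, atx-2 and ears-2 peaks, alternatives chosen after seeing the data. Depth is unknown, so no counting error can be given for a region listed in 1 list and not in another.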

Other observations

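The arrangement of GCGGCGC between copies of TTGC at the idhg-1 summit was present at 7 nuclear thresholded peaks, which were named after their values were seen. Besides idhg-1, atx-2 and ears-2, the genes of nearest 5′ end were C16A11.2, with a signal of 79.3 in the pooled list, Y39A3CL.7, with 54.7, arf-6, a small GTPase gene, with 45.4, and set-25, a histone methyltransferase gene, with 44.3. All 7 summits lay upstream of the nearest 5′ end and in intergenic sequence. Except at set-25, each also lay in the promoter window of a further protein-coding gene, so the nearest gene is a label only. At set-25, 100% of the runs of 32 bases around the summit were found again in the genome, and at the other 6 none were. In the replicate 2 list the arf-6 peak had a signal of 3.02 and the set-25 peak 8.09, against 50.7 at idhg-1. The lowest nuclear signal of that list was 2.73 and the median 4.24, so the arf-6 value is near the bottom of the list.

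On the older build ce10, whose coordinates were not compared with genes here, the highest nuclear region of the pooled list was also on chromosome III, with a signal of 215.9, and that of the replicate 1 list was on chromosome III with 169. In the replicate 2 list it was on chromosome V with 68.6.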
